A study of Homo sapiens with 15 samples.

Results

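Transcript levels of the retinoic acid receptor genes RARA, RARB and RARG, the retinoid X receptor genes RXRA and RXRB, and the retinoid enzyme genes CYP26A1 and DHRS3 were followed in MM.1S, a human cell line from multiple myeloma. These 7 genes were taken by their Ensembl identifiers from a table of 47459 genes. All 7 were in the table, and 6 of them, all but RARB, had a normalized read count of 5 or more in at least 3 libraries and were tested. The list was chosen by measured values of these libraries, namely the lower RARA level under the combination and the lower CYP26A1 level under dCBP-1 against DMSO, so the values of both genes are given as a description, without a p-value.

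Every group was the same cell line, collected after 6 h. The control group received DMSO, the solvent. The second group received A-485, which inhibits the catalytic acetyltransferase domain of CBP and p300, a pair of paralogous coactivators, and the third GNE-781, which blocks the bromodomains of both. The fourth group received A-485 and GNE-781 together and is called the combination. The fifth received dCBP-1, a degrader of CBP and p300 built from a GNE-781-like bromodomain ligand and a ligand of the ubiquitin ligase receptor cereblon. Each compound was at 100 nM, and each of the 5 groups had 3 libraries, 15 in all, of 13.10 to 18.29 M reads. The libraries read the 3′ ends of mRNA, so a level is a normalized read count that does not scale with transcript length. Whether replicates came from separate cultures is not in the labels, and a p-value here covers no more than the spread among the libraries, which may be technical.

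Retinoic acid, made from vitamin A, acts through heterodimers of a retinoic acid receptor (RAR) and a retinoid X receptor (RXR). The heterodimer sits on paired sites in DNA, commonly a direct repeat of a hexamer spaced by 5 bases. Without ligand it holds corepressor complexes, and with ligand it exchanges them for coactivators that include CBP and p300. CYP26A1 hydroxylates retinoic acid and starts its clearance, DHRS3 reduces retinaldehyde back to retinol, and both genes are classical targets of retinoic acid, as is RARB. RXR also pairs with the vitamin D, thyroid hormone, peroxisome proliferator and liver X receptors. In blood cells RARA is best known as the partner of PML in the fusion gene of acute promyelocytic leukaemia.

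DMSO replicates 1 and 2 differed in quality from the other 13 libraries. The mitochondrial share of reads was 23.1% and 19.7% in them, and 14.3% to 17.0% elsewhere. Reads covered 16287 and 17386 genes in them when all libraries were set to the same depth, and 18727 to 20578 elsewhere. Values without both are therefore given where they change a call, and the part of this difference in the results was not tested. All 9 plasma cell markers were tested, and their summed level ran from 65604 to 68956 with DMSO, 49611 to 62907 with A-485, 38517 to 42981 with GNE-781, 34819 to 43958 with the combination and 25725 to 27244 with dCBP-1. The mean of each was lower with dCBP-1 than with DMSO, but by unlike amounts. JCHAIN, the largest, went from 19624 to 15322 and MZB1 from 7679 to 3885. PRDM1 went from 9190 to 492, TNFRSF17 from 6023 to 375 and IRF4 from 2335 to 232. Markers of other cells were low in every group. Summed over 6 genes, B cell markers ran from 64.6 to 191, T or NK cell markers from 5.46 to 55.9, with CD3D and NKG7 at 0, and myeloid markers from 0 to 34.0, with CSF1R and S100A8 at 0. The B cell sums were 132 to 191 with DMSO, 75.3 to 127 with A-485 and 88.6 to 112 with GNE-781. They were 95.1 to 120 with the combination and 64.6 to 79.2 with dCBP-1. T or NK sums were 18.2 to 55.9 with DMSO and 7.11 to 11.2 with dCBP-1. Stromal and epithelial markers, 5 of 6 in the table, summed to 0 to 7.69 with DMSO, 2.06 to 11.9 with A-485, 7.38 to 13.8 with GNE-781, 17.5 to 36.2 with the combination and 21.0 to 37.9 with dCBP-1. KRT18 made up much of this rise, with means of 0 with DMSO, 13.2 with the combination and 20.5 with dCBP-1. COL1A1 had means of 2.65, 8.57 and 3.94 in these groups, and COL3A1, EPCAM and VWF were below 5 in every library. The part of these marker levels in the results was not tested. In RNA from whole cultures, fewer expressing cells and less RNA per cell cannot be told apart.

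Direct repeats of the kind bound by RAR and RXR were searched near the starts of the 7 genes, because 2 of the genes are textbook carriers of them. RefSeq promoter windows (GRCh38.p14, 250 bases before to 50 after a start) matched 7 of 7 genes. The hexamers searched were the consensus AGGTCA and the variants AGTTCA or GGGTCA or GGTTCA, in any pair, on both strands, spaced by 1, 2 or 5 bases. Only spacing 5 was found, in 1 window of RARB and 1 window of CYP26A1. Both windows are shown in the direction of the gene, with the hexamers in capitals.
RARB, window chr3:25428013-25428312, plus strand: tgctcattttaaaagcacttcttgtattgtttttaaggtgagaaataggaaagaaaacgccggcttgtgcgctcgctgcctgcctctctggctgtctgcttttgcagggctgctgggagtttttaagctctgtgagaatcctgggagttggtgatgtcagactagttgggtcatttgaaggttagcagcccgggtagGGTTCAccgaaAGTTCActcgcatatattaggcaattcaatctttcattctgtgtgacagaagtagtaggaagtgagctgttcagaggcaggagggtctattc
CYP26A1, window chr10:93073643-93073942, plus strand: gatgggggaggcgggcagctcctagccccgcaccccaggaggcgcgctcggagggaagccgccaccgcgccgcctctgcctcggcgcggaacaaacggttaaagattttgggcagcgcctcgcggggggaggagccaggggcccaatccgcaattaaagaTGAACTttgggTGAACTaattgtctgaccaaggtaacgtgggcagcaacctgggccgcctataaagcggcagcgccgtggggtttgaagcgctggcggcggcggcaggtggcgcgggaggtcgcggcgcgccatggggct
In RARB the repeat reads along the gene, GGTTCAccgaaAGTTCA, at −53 to −37 from the start. In CYP26A1 it lies on the opposite strand at −90 to −74, and read on that strand it is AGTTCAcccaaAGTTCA. Of 35116 RefSeq windows of the same length, 31 (0.0883%) held a repeat spaced by 5. None of the 3 windows of RARA held a repeat of these letters, nor did those of RARG, RXRA, RXRB and DHRS3. A match is a string of letters and not a shown binding site, and windows without one say nothing about the receptors. Of 9 other tested genes with such a window, 2 were called lower and 2 higher with dCBP-1, and among 11115 tested genes with any window 19.6% were called lower and 21.8% higher. These 4 calls are near the background share and nothing is read from them.

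RARA carried nearly all RAR reads with DMSO and was lower in every treated group. In DMSO replicates 1, 2 and 3 RARA (ENSG00000131759) had 1515, 1989 and 1277 normalized read counts, higher than 88.6% of tested genes. The A-485 libraries had 721, 551 and 713, and the GNE-781 libraries had 388, 440 and 486. The combination had 237, 301 and 545. In the dCBP-1 libraries 90.3, 111 and 55.7 remained. All 12 treated libraries lay below all 3 DMSO libraries, and all 3 dCBP-1 libraries lay below the rest. The ranges of A-485 and GNE-781 did not overlap, while those of GNE-781 and the combination did.

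Against the DMSO mean of 1593 ± 363 (SD, n = 3), the mean RARA level was 41.5% with A-485, 27.5% with GNE-781, 22.7% with the combination and 5.39% with dCBP-1. On the scale of log2(value + 1) the differences from DMSO were −1.25, −1.84, −2.21 and −4.23, each with a standard error of 0.23. Without DMSO replicates 1 and 2 they were −0.96, −1.55, −1.91 and −3.94. The A-485 value is the one that passed the threshold of the model with all libraries but not without DMSO replicate 2, at −1.08, or without both.

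**Figure D1:**
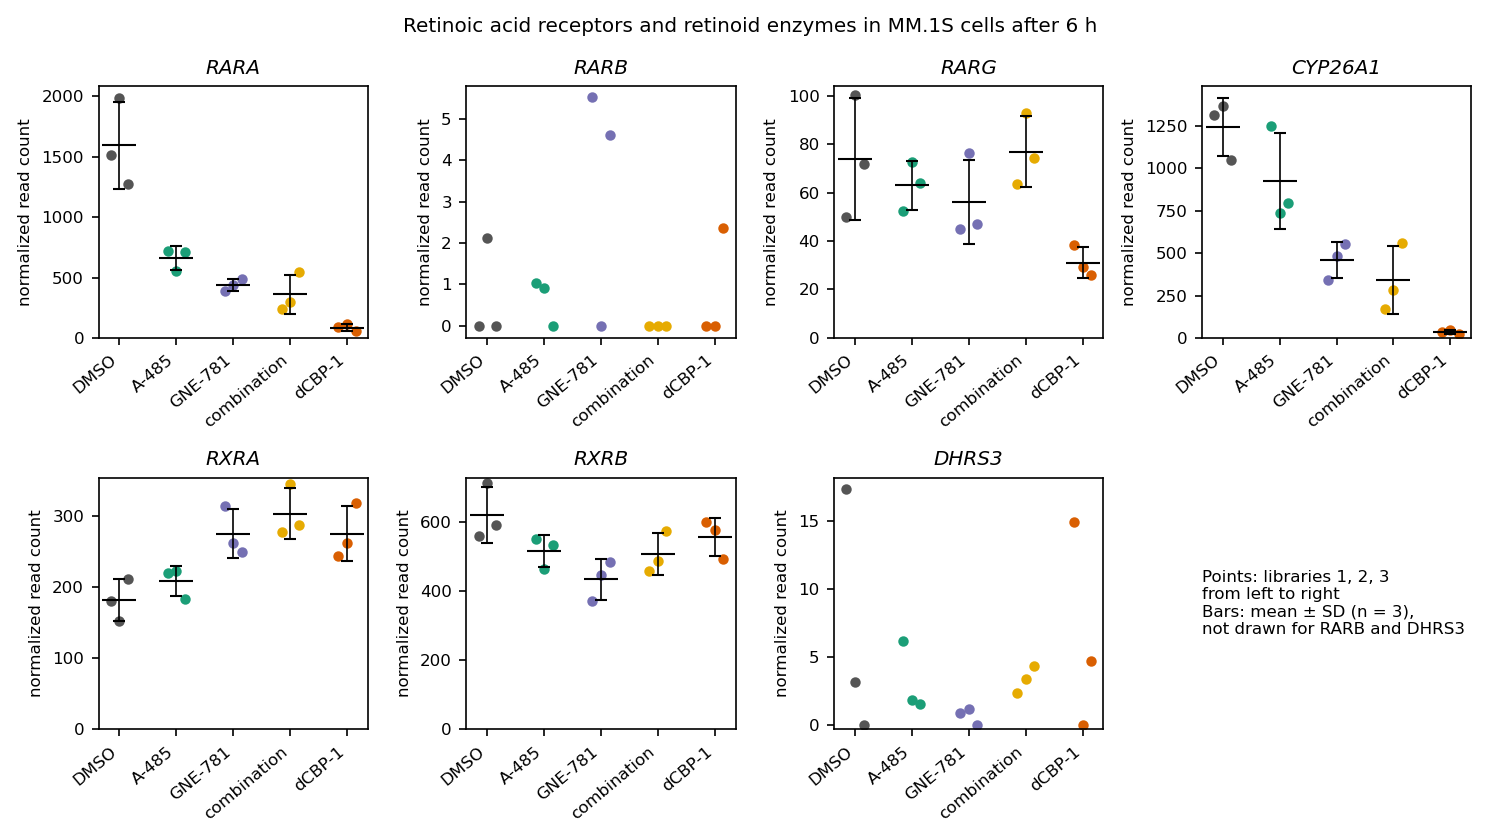
Normalized read counts (vertical axes, linear and of different range for each gene) of the 7 genes in the 5 groups. Points are libraries and bars are the mean ± SD (n = 3), which are not drawn for RARB and DHRS3. RARA and CYP26A1 are lowest with dCBP-1, RXRA is higher than DMSO in 3 groups, and RARB and DHRS3 lie near 0.

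RARG, the receptor best known from epithelia, was present at a far lower level than RARA and fell with dCBP-1. RARG (ENSG00000172819) had 49.97, 100.2 and 71.6 normalized read counts in the DMSO libraries and 38.2, 29.1 and 26.1 in the dCBP-1 libraries. The dCBP-1 libraries all lay below the DMSO libraries. The difference was −1.18 ± 0.30 on the log2 scale (limma adjusted p = 0.0022), and −1.19 without DMSO replicates 1 and 2 (limma adjusted p = 0.023). Group means were 63.0 ± 10.1 with A-485, 56.1 ± 17.4 with GNE-781 and 76.9 ± 14.7 with the combination, and each of these ranges overlapped that of DMSO. Their log2 differences from DMSO had 95% intervals of −0.79 to 0.43 under A-485, −0.99 to 0.23 under GNE-781 and −0.52 to 0.71 under the combination. Changes within those bounds remain compatible with these values.

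RARB, whose promoter holds the repeat shown above, was hardly read. The RARB (ENSG00000077092) reads were 0, 2 and 0 in the DMSO libraries, 1, 1 and 0 with A-485, 6, 0 and 5 with GNE-781, 0, 0 and 0 with the combination and 0, 0 and 2 with dCBP-1. A count of 0 allows up to 3 reads, which correspond to 2.37 to 3.64 normalized read counts in these libraries. RARB was therefore at or near this limit in every group except for 2 GNE-781 libraries, and no fold is given. Its last 500 bases overlap TOP2B on the opposite strand, which had 1450 to 2410 normalized read counts, and whether reads were counted by strand is not given in the sources used here.

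The make-up of RAR reads differed between groups, since RARA was reduced more than RARG. RARA gave 94.7% to 96.8% of the reads of the 3 RAR genes in the DMSO libraries, 91.0 ± 2.51% with A-485 (SD, n = 3), 88.0 ± 2.60% with GNE-781, 81.1 ± 6.11% with the combination and 66.2% to 79.3% with dCBP-1. All dCBP-1 libraries lay below all DMSO, A-485 and GNE-781 libraries, and their range overlapped that of the combination. RARA still gave most RAR reads in every library.

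**Figure D2:**
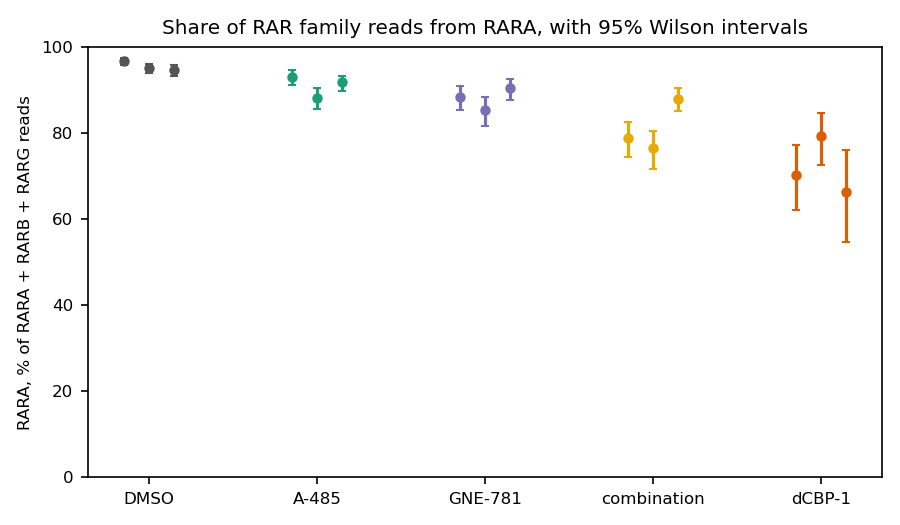
Share of the reads of RARA, RARB and RARG that came from RARA (vertical axis, percent from 0 to 100) in each library of the 5 groups, with 95% Wilson intervals that cover counting error only. Points run from 94.7% to 96.8% with DMSO and from 66.2% to 79.3% with dCBP-1.

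RXRA, a partner receptor, did not follow RARA and rose in 3 of the 4 treated groups. RXRA (ENSG00000186350) had 181, 153 and 212 normalized read counts with DMSO and 220, 223 and 184 with A-485. It had 315, 263 and 249 with GNE-781, 278, 345 and 288 with the combination and 245, 263 and 319 with dCBP-1. All 9 libraries of the last 3 groups lay above the DMSO libraries, and the A-485 range overlapped that of DMSO. The log2 differences from DMSO, each ± 0.18, were 0.60 with GNE-781 (limma adjusted p = 0.019), 0.74 with the combination (limma adjusted p = 0.0033) and 0.60 with dCBP-1 (limma adjusted p = 0.0082). With A-485 it was 0.21, with 95% bounds of −0.16 and 0.57 (limma adjusted p = 0.62).

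The calls of RXRA depended on few libraries. Without DMSO replicate 2, its lowest DMSO library, the difference was 0.48 with GNE-781 (limma adjusted p = 0.11) and 0.48 with dCBP-1 (limma adjusted p = 0.057). It was 0.50 without GNE-781 replicate 1 (limma adjusted p = 0.12) and 0.49 without dCBP-1 replicate 3 (limma adjusted p = 0.059). Without DMSO replicates 1 and 2 none of the 3 passed, with 0.37 for GNE-781 (limma adjusted p = 0.41), 0.51 for the combination (limma adjusted p = 0.21) and 0.36 for dCBP-1 (limma adjusted p = 0.27).

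RXRB, the more abundant of the RXR transcripts in every group, fell with GNE-781. RXRB (ENSG00000204231) had 558, 712 and 592 normalized read counts in the DMSO libraries and 370, 447 and 486 with GNE-781, a log2 difference of −0.52 ± 0.15 (limma adjusted p = 0.019). The GNE-781 libraries all lay below the DMSO libraries. That call ended without DMSO replicate 2 (−0.41, limma adjusted p = 0.12), without GNE-781 replicate 1 (−0.41, limma adjusted p = 0.13) and without DMSO replicates 1 and 2 (−0.46, limma adjusted p = 0.21). With A-485 the libraries had 551, 465 and 534, also below every DMSO library, but the difference of −0.26 did not pass (limma adjusted p = 0.42). The combination had 457, 488 and 574 and dCBP-1 had 599, 578 and 493, and both ranges overlapped that of DMSO. The 95% interval of the dCBP-1 difference was −0.46 to 0.16.

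RXRG, the remaining RXR gene, had 2 reads in the DMSO libraries together, 1 in the combination and 0 elsewhere. RXRA gave 22.8 ± 4.57% of the reads of RXRA and RXRB with DMSO (SD, n = 3), 28.9 ± 3.404% with A-485, 39.0 ± 6.26% with GNE-781, 37.6 ± 4.02% with the combination and 33.2 ± 5.39% with dCBP-1. RXRB therefore gave the larger share of RXR reads in each group.

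CYP26A1, the retinoic acid hydroxylase, stood higher than 85.1% of tested genes with DMSO and with dCBP-1 kept the lowest share of its DMSO level of the 5 genes read in quantity. CYP26A1 (ENSG00000095596) had 1318, 1369 and 1050 normalized read counts in the DMSO libraries. With A-485 it had 1251, 734 and 795, and with GNE-781 it had 343, 483 and 556. The combination libraries had 171, 285 and 561, and 35.4, 46.8 and 21.3 were left with dCBP-1. The A-485 range overlapped that of DMSO. The GNE-781 and combination ranges overlapped each other below both, and dCBP-1 lay below all others.

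Mean CYP26A1 levels against the DMSO mean of 1246 ± 171 (SD, n = 3) were 74.4% with A-485, 37.0% with GNE-781, 27.2% with the combination and 2.77% with dCBP-1. The log2 differences from DMSO were −0.46, −1.45, −2.03 and −5.19, each ± 0.29. They were −0.22, −1.21, −1.80 and −4.96 without DMSO replicates 1 and 2, and the GNE-781 value did not pass the threshold there. The 95% interval for A-485 with all libraries ran from −1.05 to 0.13. The last bases of CYP26A1 are shared with AL358613.3 on the same strand in GENCODE release 29, a transcript not analysed here, so reads of the 2 cannot be told apart. The other CYP26 genes were almost unread, with 4 reads of CYP26B1 and 0 of CYP26C1 over all 15 libraries.

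DHRS3, the retinaldehyde reductase, was close to the limit of detection. DHRS3 (ENSG00000162496) had 18, 3 and 0 reads with DMSO, 6, 2 and 2 with A-485, 1, 1 and 0 with GNE-781, 3, 3 and 4 with the combination and 16, 0 and 4 with dCBP-1. High and low libraries occurred within the same group, and all treated ranges overlapped the DMSO range. It entered the test because exactly 3 libraries reached the minimum, and no direction is read from it.

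Counts of these genes called in each comparison are set beside the share of all 16104 tested genes that were called in the same direction. With A-485, 1 of 6 tested genes was called lower (RARA), against 2.14% of all genes called, 1.79% lower and 0.348% higher. GNE-781 had 3 of 6 called lower (RARA, RXRB and CYP26A1), against 8.81% of all genes, and RXRA called higher, against 7.82% (16.6% in either direction). The combination had RARA and CYP26A1 called lower, against 9.60%, and RXRA called higher, against 11.4% (21.0% in either direction). For dCBP-1, RARA, RARG and CYP26A1 were called lower, against 18.5%, and RXRA higher, against 19.3% (37.8% in either direction). RARA and CYP26A1 entered the list for their change, so these shares are a description, and the 4 comparisons share the DMSO libraries. The background itself depended on single libraries. For A-485, with 289 genes called lower and 56 higher, the total of 345 became 69 without DMSO replicate 2 and 1138 without DMSO replicate 3, the latter with 455 lower and 683 higher. With 1 library left out it ran from 1467 to 3689 for GNE-781 and from 2050 to 4277 for the combination. Without DMSO replicates 1 and 2 the background turned to lower, with 724 lower and 159 higher for GNE-781 (1419 and 1260 with all libraries), 780 and 284 for the combination (1546 and 1837) and 2540 and 1248 for dCBP-1 (2987 and 3105).

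**Figure D3:**
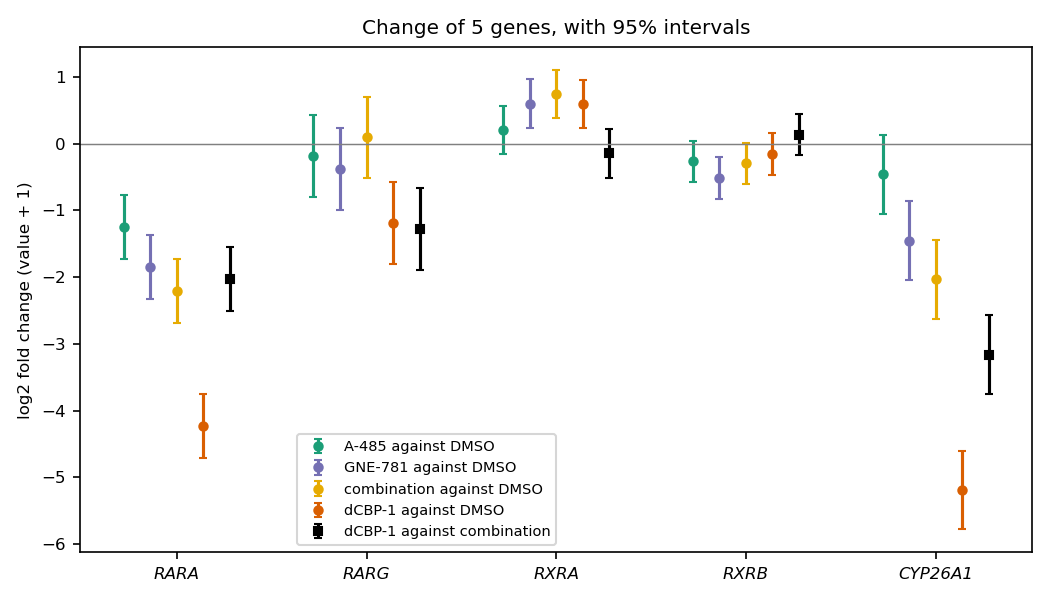
Log2 fold change of log2(value + 1) (vertical axis) for RARA, RARG, RXRA, RXRB and CYP26A1 in 4 comparisons with DMSO (circles) and in dCBP-1 against the combination (squares). Bars are 95% intervals of the limma model. RARA and CYP26A1 reach −4.23 and −5.19 with dCBP-1, while RXRA lies above 0 in the comparisons with DMSO, a position that for A-485 became −0.03 without DMSO replicates 1 and 2.

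The degrader dCBP-1 was also compared with the combination at the same nominal dose and time. CBP and p300 protein and the degree of block are not measured by these libraries. Only dCBP-1 carries the cereblon ligand, so removal of the 2 proteins and other effects of dCBP-1 cannot be told apart. RARA and CYP26A1 were lower with dCBP-1 by a further −2.03 ± 0.23 and −3.16 ± 0.29 on the log2 scale. All 3 dCBP-1 libraries lay below all 3 combination libraries for both genes. RARG had 63.7, 92.8 and 74.3 normalized read counts with the combination, all above its dCBP-1 libraries, and the difference of −1.28 ± 0.30 passed (limma adjusted p = 0.0052). That call ended without combination replicate 2 (−1.14, limma adjusted p = 0.051). RXRA had a difference of −0.14 with 95% bounds of −0.51 and 0.22 (limma adjusted p = 0.79), and RXRB had 0.14 with an interval of −0.17 to 0.45 (limma adjusted p = 0.75). Of the 6 genes, 3 were thus called lower, against 5.61% of all tested genes (6.17% in either direction). RARA and CYP26A1 are 2 of the 3 and entered the list for low values in these libraries, so nothing is read from this count.

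GNE-781 and dCBP-1 both carry a ligand of the CBP and p300 bromodomain, and dCBP-1 adds the cereblon ligand. At the shared dose of 100 nM, RARA and CYP26A1 were lower with dCBP-1 than with GNE-781 by −2.39 ± 0.23 and −3.74 ± 0.29 on the log2 scale, and these 2 were the genes called, against 7.13% of all tested genes called lower (9.31% in either direction). Both entered the list for their change, so nothing is read from this count either. RARG had −0.81 with a 95% interval of −1.42 to −0.20 and did not pass (limma adjusted p = 0.093), although its dCBP-1 libraries all lay below its GNE-781 libraries. RXRA was at the same level within an interval of −0.37 to 0.36 (limma adjusted p = 0.996). RXRB had 0.36 with an interval of 0.05 to 0.67 (limma adjusted p = 0.15), and it passed under quantile normalization (0.42, limma adjusted p = 0.036) and in DESeq2 (0.38, adjusted p = 0.045).

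Adding A-485 to GNE-781 gave no called gene among the 6, and 0.00% of all tested genes were called by limma. No gene of the 6 had an unadjusted p below 0.05, and edgeR and DESeq2 called 0 of them. RARA had a difference of −0.36, with a 95% interval of −0.84 to 0.12. CYP26A1 had −0.58, with an interval of −1.17 to 0.01. For both genes combination replicate 3 lay above all 3 GNE-781 libraries, and combination replicates 1 and 2 lay below all 3. Over all genes 494 had an unadjusted p below 0.05, with 0 called by edgeR and 7 by DESeq2. Differences of either gene within its interval remain compatible with these values, at 3 libraries a group.

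Within groups the libraries ordered RARA and CYP26A1 alike. The lowest library of RARA was also the lowest of CYP26A1 in 5 of 5 groups, and the same held for the highest. In the combination, replicate 1 was lowest and replicate 3 highest for both genes, and with dCBP-1 replicate 3 was lowest and replicate 2 highest. RXRB shared the lowest library of RARA in 4 of 5 groups, RARG in 3 and RXRA in 1. Among the 8052 tested genes in the upper part of the level range, from the median upwards, 135 (1.68%) had the same lowest library as RARA in all 5 groups. The libraries share their RNA and their scaling factor, so the order is a description.

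**Figure D4:**
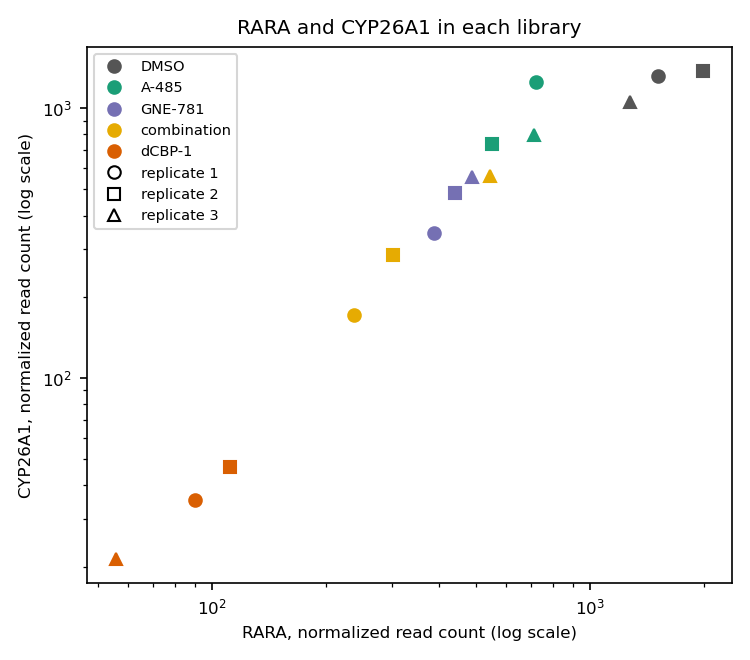
RARA (horizontal) against CYP26A1 (vertical) in normalized read counts on log axes, with 1 point per library, colours for the 5 groups and symbols for the replicate number, which names a library and pairs none. The dCBP-1 libraries lie at 55.7 to 111 for RARA and 21.3 to 46.8 for CYP26A1, below all other libraries on both axes.

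The genes whose levels most resembled those of RARA over the 15 libraries were PKP2, a plakophilin of desmosomes, BARX2, a homeobox factor, VIM, the intermediate filament vimentin, INPP4A, an inositol polyphosphate phosphatase, and ELK3, an ETS factor. Their Pearson correlations with RARA on the log2 scale were 0.988, 0.987, 0.985, 0.981 and 0.980, and that of CYP26A1 was 0.969. PKP2 went from 1031 ± 122.98 normalized read counts with DMSO to 131 ± 12.4 with dCBP-1 (SD, n = 3), and BARX2 from 2043 ± 229 to 347 ± 64.3. For CYP26A1 the closest were RASA3, MYC, SEC14L1, P2RY10 and PPP1R16B, with correlations of 0.987, 0.986, 0.986, 0.985 and 0.985. RASA3, a GTPase-activating protein, went from 1740 ± 74.1 to 238 ± 50.6. The libraries fall into treatment groups, so such correlations largely restate the group means. DHRS3 had no close neighbour, with 0.702 for GARS1-DT at most.

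The wider retinoid pathway was described with 85 genes in 6 lists, of which 53 passed the filter on low values. With dCBP-1 against DMSO, 14 were called lower and 13 higher, against 18.5% and 19.3% of all tested genes, and the median log2 difference was 0.09, against 0.07 over all tested genes. GNE-781 had 8 lower and 8 higher, against 8.81% and 7.82% of all tested genes, and the combination had 10 and 6, against 9.60% and 11.4%. A-485 had 1 lower and 0 higher, against 1.79% and 0.348%, with 6 and 5 at an unadjusted p below 0.05, and over both directions edgeR called 2 and DESeq2 5. The A-485 call was CARM1, an arginine methyltransferase that acts as a coactivator, at −0.47 (limma adjusted p = 0.0497). Without DMSO replicates 1 and 2 the balance of pathway calls moved towards lower for dCBP-1, GNE-781 and the combination, as over all tested genes. The median log2 difference over all tested genes was then −0.12 for dCBP-1, −0.11 for GNE-781, −0.09 for the combination and −0.19 for A-485. With all libraries these medians were 0.07, 0.07, 0.09 and −0.03, so the move is not particular to the pathway genes.

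Most transport and synthesis genes did not pass the test with dCBP-1, and several were hardly read. Of 3 tested transport genes none was called with dCBP-1, and FABP5, a carrier of retinoic acid and fatty acids, had 618 ± 152 normalized read counts with DMSO and 537 ± 80.7 with dCBP-1 (SD, n = 3). CRABP2 and LRP2, both low, had 27.2 ± 7.20 and 13.0 ± 7.21 with DMSO. In the synthesis list 1 of 11 tested genes was called lower and 1 higher with dCBP-1 (9.09% each). The shares over all tested genes were 18.5% and 19.3%. RDH13, a retinol dehydrogenase of mitochondria, fell from 728 ± 63.6 to 313 ± 8.34 (−1.21 ± 0.14, limma adjusted p = 3.4e-08). RDH11, a retinaldehyde reductase, rose from 562 ± 101 to 1058 ± 156 (0.92 ± 0.17, limma adjusted p = 7.5e-05). The retinaldehyde dehydrogenases ALDH1A1 and ALDH1A3, which make retinoic acid, had 4.54 ± 3.96 and 0.641 ± 1.11 with DMSO, and the 1 tested clearance gene, CYP2C8, had 3.73 ± 3.31. None of these 3 was called with dCBP-1.

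Among the other receptors that pair with RXR, 2 of 9 were called lower and 2 higher with dCBP-1 (22.2% each). These counts are near the shares over all tested genes, 18.5% lower and 19.3% higher, and nothing is read from them. VDR, the vitamin D receptor, had a log2 difference of −0.82 (limma adjusted p = 0.0032) and NR1H2, a liver X receptor, one of −0.47 (limma adjusted p = 0.013). PPARD, a peroxisome proliferator receptor, rose by 0.95 (limma adjusted p = 0.0018) and NR4A2, an orphan receptor, by 1.10 (limma adjusted p = 0.0039). All 4 calls ended without DMSO replicates 1 and 2, at −0.79 for VDR (limma adjusted p = 0.068), −0.42 for NR1H2 (limma adjusted p = 0.15), 0.53 for PPARD (limma adjusted p = 0.20) and 0.89 for NR4A2 (limma adjusted p = 0.063). The NR1H2 call also ended without DMSO replicate 2 (−0.41, limma adjusted p = 0.067), without dCBP-1 replicate 3 (−0.34, limma adjusted p = 0.11) and under quantile normalization (−0.37, limma adjusted p = 0.059).

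Of 16 coregulators, 5 were called lower (31.2%) and 6 higher (37.5%) with dCBP-1, against 18.5% and 19.3% of all tested genes. TBL1XR1 and TBL1X, paralogous subunits of corepressor complexes, fell from 7511 ± 726 to 1627 ± 210 (−2.21 ± 0.14, limma adjusted p = 5.9e-14) and from 4877 ± 740 to 1711 ± 18.3 (−1.50 ± 0.12, limma adjusted p = 2.9e-11). CREBBP, which encodes CBP itself, rose from 1264 ± 163 to 2274 ± 326 (0.85 ± 0.15, limma adjusted p = 2.9e-05).

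Of 13 tested retinoic acid target genes, 6 were called lower (46.2%) and 4 higher (30.8%) with dCBP-1, against 18.5% and 19.3% of all tested genes. The median log2 difference was −0.11, against 0.07 over all tested genes. ITGA4, the integrin alpha 4 subunit, fell from 1243 ± 168 to 261 ± 44.0 (−2.25 ± 0.16, limma adjusted p = 3.0e-12). MEIS1, a homeobox factor, fell by 1.55 (limma adjusted p = 1.5e-09), BHLHE40, a transcriptional repressor, by 2.38 (limma adjusted p = 1.2e-06) and CD38, an ectoenzyme of plasma cells, by 1.21 (limma adjusted p = 1.8e-07). CD38 is also one of the plasma cell markers summed above.

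Against the combination, 9 of the 53 pathway genes were called lower with dCBP-1 and 0 higher, and against GNE-781 the counts were 10 and 0. At an unadjusted p below 0.05, 1 and 6 of them were higher, and over both directions edgeR called 11 and 12 and DESeq2 12 and 14. Among all tested genes 5.61% and 7.13% were called lower, and 0.553% and 2.19% higher. The medians were −0.08 and −0.04, against −0.03 and −0.01 over all tested genes. TBL1XR1 had −1.51 against the combination (limma adjusted p = 1.2e-09), TBL1X −0.97 (limma adjusted p = 7.2e-07) and RDH13 −0.75 (limma adjusted p = 0.00033). ITGA4 had −1.34, MEIS1 −1.15, BHLHE40 −1.23 and CD38 −0.58 in the same comparison, each called lower. Under quantile normalization 7 pathway genes were called higher against GNE-781 and 2 against the combination. The combination against GNE-781 gave 0 calls of 53 in limma, edgeR and DESeq2, with 1 gene at an unadjusted p below 0.05.

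**Figure D5:**
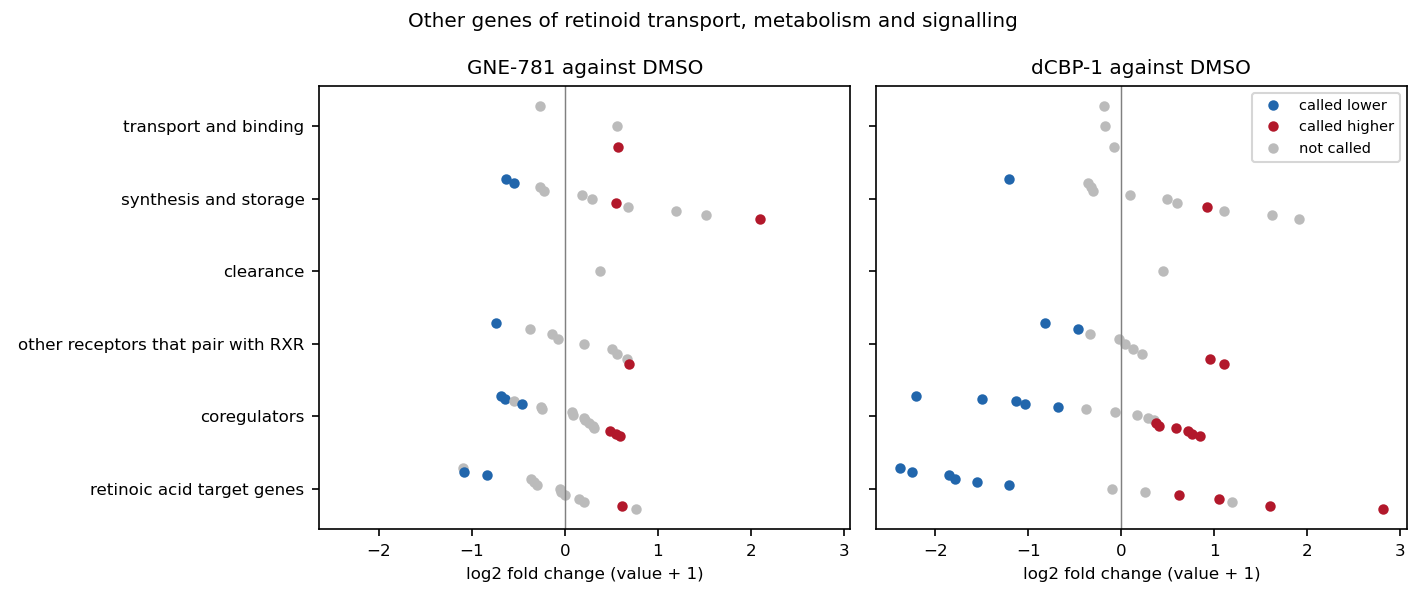
Log2 fold change of log2(value + 1) (horizontal axis, the same in both panels) of the 53 tested pathway genes in 6 lists, with GNE-781 and with dCBP-1 against DMSO. Blue points were called lower, red points higher and grey points were not called. Calls in both directions occur among coregulators, RXR partner receptors and retinoic acid target genes in both panels.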

How the data were processed

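RNA of 15 MM.1S libraries (5 groups of 3, grouped by their titles) was read at the 3′ end with the Lexogen QuantSeq kit, after lysis in Trizol with ERCC controls, per the labels' protocols. The hg19 build is named in the submitters' processing notes. The aligner, counting tool, annotation and strandedness are not given in the sources used here. The deposited values are a signal that the authors call normalized read counts. All were whole reads divided by 1 factor per library (100% within 0.01 of a whole read), from which the reads were recovered. How the authors set the factors is not stated. The table used here holds 47459 genes with values, with symbols for 45779 (96.5%), and 1 last row without values, so genes after it were not analysed. ERCC rows numbered 0. Some label fields disagree with the titles (GNE-782 and GNE-783 for GNE-781 in 2 combination libraries, and genomic DNA as the molecule); the titles were followed, and the reason was not tested.

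Genes were tested if 3 or more libraries had a value of at least 5, which left 16104. The test was limma-trend (limma 3.58.1, R 4.3.3), two-sided, on log2(value + 1) of the deposited values, in 1 model of 5 group means. P-values were adjusted by Benjamini-Hochberg over these genes separately for each comparison, and a gene was called if the adjusted p was under 0.05. Means carry SD and log2 differences carry SE. The code was tested on simulated data. Replicates differed by more than counting error (chi-square per degree of freedom 5.30 to 42.2).

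The genes described, the pathway lists and the alternatives were chosen with earlier results of these data known. Named are the 7 genes, up to 4 genes of each pathway list with the smallest p with dCBP-1 against DMSO, and the 5 genes at or above the median level most correlated with RARA, CYP26A1 or DHRS3. Of the genes this rule names, 1 is not reported here. CARM1, TOP2B, RXRG, CYP26B1 and CYP26C1 were named after their values were seen. The alternatives covered the scaling (TMM, median-ratio, quantile), the pseudocount (0.25, 5), the filter (none, 20), a model of the compared groups alone, a replicate block, count tests on the recovered reads (edgeR 4.0.16, DESeq2 1.42.0) and libraries left out.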

Additional observations from a re-analysis of the deposited data

How the results depend on the processing

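Of 1019 values of single genes under other settings, 959 kept their direction and side of the threshold, 21 lost and 2 gained a call, and 37 changed sign, most of them for DHRS3. Signs changed for genes without a call in the main model. With 1 library left out, RARG had −0.43 to 0.061 with A-485 and −0.15 to 0.34 with the combination. RXRA with A-485 had −0.028 without DMSO replicates 1 and 2. RXRA with dCBP-1 against GNE-781 had 0.012 under TMM and median-ratio scaling, 0.0085 in edgeR, 0.0060 in DESeq2, 0.034 under quantile normalization and −0.11 to 0.096 with 1 library left out. CRABP2 with dCBP-1 had 0.26 without DMSO replicates 1 and 2. DHRS3 with A-485 had 0.24 with a pseudocount of 0.25, 1.90 without DMSO replicates 1 and 2 and −1.22 to 0.88 with 1 library left out, and with GNE-781 it had 0.69 without DMSO replicates 1 and 2. With the combination DHRS3 had −0.042 under TMM, −0.052 under median-ratio scaling, −0.51 under quantile normalization, −0.22 with a pseudocount of 5, −1.13 in edgeR, −1.16 in DESeq2 and −1.02 to 1.08 with 1 library left out. With dCBP-1 it had −0.17 under quantile normalization, −0.15 in edgeR, −0.16 in DESeq2 and −0.95 to 1.17 with 1 library left out, and against the combination −0.41 with a pseudocount of 0.25 and −0.85 to 1.15 with 1 library left out.

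For A-485 the count of these genes called (1) was 0 without DMSO replicates 1 and 2 and 0 to 1 with 1 library left out. The pathway count (1) was 2 under TMM, median-ratio and quantile scaling (1 lower and 1 higher), 2 in edgeR, 5 in DESeq2, 0 with a pseudocount of 0.25, without a filter, with only the groups compared or without DMSO replicates 1 and 2, and 0 to 4 with 1 library left out. For GNE-781 the genes called (4) were 1 without DMSO replicates 1 and 2 and 2 to 4 with 1 library left out, and the pathway count (16) was 6 and 7 to 15. Without DMSO replicates 1 and 2 the pathway count was 5 with the combination (16) and 15 with dCBP-1 (27). Against GNE-781 the dCBP-1 pathway count (10) was 17 under quantile normalization. Over all genes, A-485 had 289 called lower and 56 higher, and 193 and 164 under TMM, 246 and 137 under median-ratio and 185 and 145 under quantile scaling. dCBP-1 against the combination had 904 and 89, and 1025 and 337, 1043 and 330, and 987 and 499 under the same 3. Without DMSO replicates 1 and 2, all genes called numbered 12 for A-485 (6 lower and 6 higher), 883 for GNE-781, 1064 for the combination and 3788 for dCBP-1, against 345, 2679, 3383 and 6092, with more lower than higher calls in the last 3. That fit leaves 1 DMSO library, which is assumed to vary like the other groups. The causes of these changes were not tested.

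With the replicate block the pathway count for A-485 was 0, and no other count of these genes or of pathway genes moved by over 1.5 times. The replicate numbers were not taken as a pairing. Over 30 pairs of libraries with the same number the correlations of deviations from group means ran from −0.53 to 0.40, with 7 over 0.1, and 0 of 15 libraries correlated best with their own number.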
